A study of Mus musculus with 8 samples.

Results

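The 32 genes described here encode the machinery that licenses replication origins, copies DNA and repackages it, together with genes that are switched on at the entry into S phase. They were taken as a list of names, Mcm2 to Mcm7, Mcm10, Pcna, Ung, Cdc6, Cdt1, Cdc45, Gins1 to Gins3, Dtl, Hells, Cdca7, Uhrf1, Chaf1a, Chaf1b, Rfc2 to Rfc4, Rpa2, Pola1, Pold1, Pole, Prim1, Fen1, Lig1 and Slbp, and all 32 were found among the 32285 genes of the deposited matrices. The cells were CD90.1+ OT-I T cells, CD8+ T cells with a receptor for ovalbumin, from Cas9 knock-in mice, and CD90.1 is the reporter of the vector that brought in a CRISPR library against metabolic genes. They were sorted 7 days after transfer from orthotopic tumours of KPC_OVA, a mouse pancreatic adenocarcinoma line that constitutively expresses ovalbumin, grown in adult Cas9 knock-in recipients that were immunocompetent and kept their own T cells. Recipients received an anti-PD-1 blocking antibody (3 libraries, aPD-1) or control IgG (1 library), and cells with nontargeting guides (sgNT) were present in every library as the genetic control. The study gives the number of animals for each treatment arm and took them from separate experiments, but neither it nor the labels say how they were divided among the libraries.

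Origins are licensed in G1, when ORC, CDC6 and CDT1 load the MCM2-7 helicase onto them. At the G1/S boundary the E2F transcription factors switch on these loading factors, and in S phase CDC45, GINS and MCM10 activate the helicase, polymerases synthesise DNA on the PCNA clamp, and histones are made to package the product. Activated CD8+ T cells divide quickly, and in tumours this capacity differs between precursor, effector and exhausted states.

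Short stretches of 4 member promoters show the letters that E2F factors are known to bind. They come from RefSeq, build GRCm38.p6, each is 30 bases long and written 5′ to 3′ on the strand of the gene, and the capitals mark the match. They were chosen because these genes carry results below, the loader Cdc6, the helicase subunits Mcm5 and Mcm6, and the chromatin factor Cdca7.
Mcm5, chr8:75109345-75109374, plus strand: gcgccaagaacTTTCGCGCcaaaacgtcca
Mcm6, chr1:128359734-128359763, minus strand: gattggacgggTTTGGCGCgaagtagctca
Cdc6, chr11:98908002-98908031, plus strand: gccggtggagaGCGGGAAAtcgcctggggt
Cdca7, chr2:72476137-72476166, plus strand: tgcgtcccggcGCGGGAAAgccggtggccc
The matches lie 145, 39, 130 and 63 bases upstream of the RefSeq start of Mcm5, Mcm6, Cdc6 and Cdca7, and in Cdc6 and Cdca7 the letters are on the opposite strand. In the GENCODE annotation of the same build (release M21) the stretches of Mcm5 and Mcm6 lie outside the gene, that of Cdca7 spans its start, and that of Cdc6 lies within the gene, whose annotated start is further upstream.

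The window searched ran from 250 bases before to 50 bases after each RefSeq start, and the letters were TTTCCCGC, TTTCGCGC, TTTGCCGC and TTTGGCGC on either strand, which can overlap one another. Promoters were found for 27 of the 32 members, 32 promoters in all, and 15 of these (46.9%) held at least 1 match. Among all 32851 promoters of the same length 2.26% did, and among the promoters with at least the lower-quartile GC content of the members 3.87% did. The median GC content was 60.7% in member promoters and 52.7% in all promoters. In 62 other replication genes, a list kept apart from the members, 26.8% of the promoters held the letters, and in 59 genes of mitosis 3.64%. The letters of the cell cycle homology region, TTTGAA, were found in 12.5% of the member promoters and 63.6% of the mitotic promoters, against 17.9% of all promoters and 7.80% of those with the GC content above. CCAAT was found in 59.4% of the member, 80.0% of the mitotic, 37.4% of all and 33.7% of the GC-rich promoters. A match is a run of letters, and binding was not measured.

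Of 56359 barcodes, 23059 with exactly 1 called guide passed the limits on unique molecular identifiers (UMIs, 1 per captured transcript) and on mitochondrial UMIs. The libraries held 2535, 2597, 6432 and 11495 cells with 48182760 to 88543446 gene UMIs in all, at a median of 16829, 16325, 12084 and 6329 UMIs, in the order aPD-1 replicates 1, 2 and 3 and IgG. All values given library by library follow this order. The CD8 T cell identity was evident, with all 8 markers detected in at least 71.6% of the cells of every library and a summed level of 6348 to 6926 CPM. CPM stands for the UMIs of a gene in a sum of cells, scaled to a fixed total of all gene UMIs in those cells, and it is the unit of all levels below. Tumour epithelium markers summed to 10.1 to 34.9, myeloid markers to 12.7 to 19.9, B or plasma cell markers to 57.6 to 252, fibroblast markers to 0.195 to 9.46 and red cell markers to 0 to 0.497 CPM. Pairs of libraries shared 3 to 18 cell barcodes.

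To describe the genes along the cell cycle without using the genes themselves, each cell was thinned to 2000 UMIs and classed by 2 other lists, the replication-dependent histones, whose messages accumulate in S phase, and genes of mitosis. Cells with at least 4 histone UMIs but under 5 mitotic UMIs are called histone-only, the reverse mitotic-only, and the remaining classes both and neither. No member is in either list. The 163 IgG cells under 2000 UMIs were not classed. Histone-only cells made up 2.05% (95% exact binomial interval 1.54 to 2.68), 1.96% (1.47 to 2.57), 1.91% (1.59 to 2.28) and 1.99% (1.74 to 2.27) of the libraries, 452 cells in all. The class both held 16.6 to 19.6%, mitotic-only 9.42 to 12.1% and neither 67.2 to 72.1%. The thresholds cut a continuous range, since 55.3 to 74.5% of the histone-only cells lay on or next to 1 of them. Mean histone UMIs were 7.25, 7.41, 7.85 and 7.92 in histone-only cells, below the 10.7, 10.8, 18.7 and 16.5 of the class both. Intervals cover counting error only.

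In thinned cells the 32 members together gave 7.60 ± 0.881 UMIs per histone-only cell (mean ± SD of 4 libraries), 6.52 ± 0.327 per cell of the class both, 4.46 ± 0.582 per mitotic-only cell and 2.79 ± 0.224 per neither cell. By library the histone-only means were 8.12, 8.55, 7.08 and 6.65, and none fell within the 2.55 to 3.07 of neither cells. Neither cells were mixed. Binned by UMIs of the 62 other replication genes, neither cells ran from 1.32 to 1.43 member UMIs (3351 cells with 0 to 1 UMI) over 1.55 to 1.82 (5579 cells with 2 to 3) and 2.87 to 3.28 (4857 cells with 4 to 7) to 6.84 to 7.82 (1828 cells with 8 to 15) and 8.32 to 10.3 (122 cells with 16 or more). This is a description, because both lists are parts of one programme and were counted in the same cells.

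**Figure D1:**
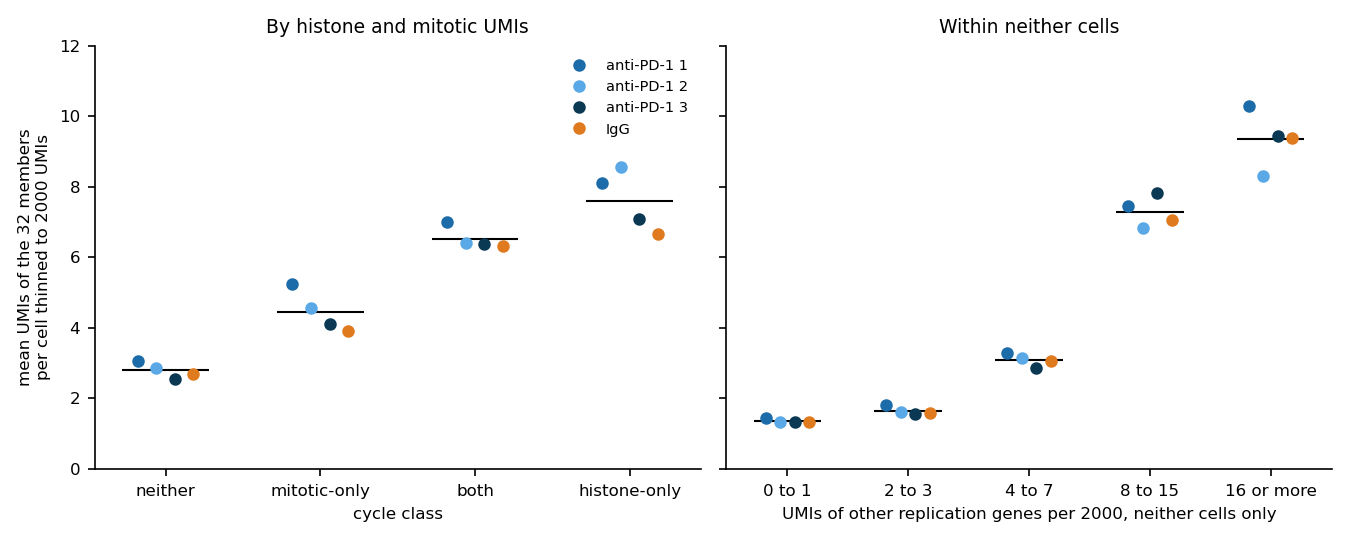
Mean UMIs of the 32 members per cell thinned to 2000 UMIs, 1 point per library and a line at the mean of 4 libraries, by cycle class (left) and, within neither cells, by UMIs of 62 other replication genes (right). Histone-only cells lie between 6.65 and 8.55 and neither cells between 2.55 and 3.07, while neither cells rich in other replication UMIs reach 8.32 to 10.3.

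For the tests, UMIs were summed per class and library and fitted with edgeR over 11272 genes with the library as a block. In histone-only against neither cells all 32 members were higher at an adjusted p under 0.05, where 14.9% of all genes tested were higher and 14.0% lower, with a median log2 fold change of 1.43 against -0.05 over all genes. In the class both against neither, 30 were higher and 1 lower (all genes 23.8% and 34.1%), with a median of 1.17. In mitotic-only against neither, 29 were higher and none lower (18.7% and 20.2%), with a median of 0.68. Directly compared, histone-only cells exceeded mitotic-only cells in 31 members (7.67% higher and 6.96% lower over all genes), with a median of 0.78. Of the 62 other replication genes 58 were higher and 1 lower in histone-only against neither cells, with a median of 1.28. The rise was not limited to replication genes. Of the 59 mitotic genes 54 were higher and none lower in this comparison, with a median of 2.28. B or plasma cell markers summed to 827 CPM in the class both of aPD-1 replicate 3 and to at most 63.8 in the other libraries, and with any 1 library left out 31 members were called in both against neither cells.

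**Figure D2:**
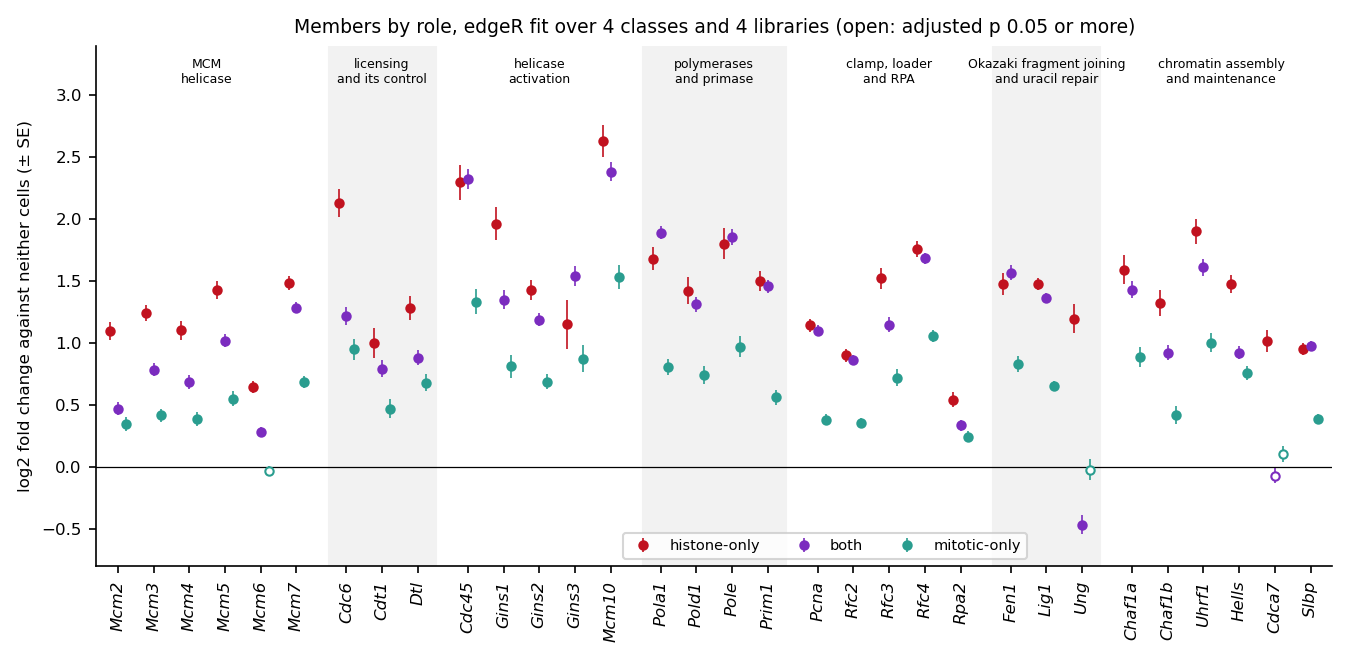
log2 fold change of each member against neither cells, with standard errors, in histone-only (red), both (purple) and mitotic-only cells (green), grouped by role, with open symbols where the adjusted p was 0.05 or more. All 32 red points lie above 0, and Ung and Cdca7 are the members whose purple points do not.

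The MCM2-7 subunits form the ring that unwinds DNA. All 6 were higher in histone-only than in neither cells, by 0.65 (Mcm6) to 1.48 (Mcm7) on the log2 scale. Mcm5 stood at 205, 200, 172 and 148 CPM in histone-only, at 153, 145, 121 and 126 in both, and at 79.0, 74.6, 55.6 and 59.9 in neither cells. The histone-only and neither libraries did not overlap, at 1.43 ± 0.0718 (log2 fold change ± SE). Mcm2 gave 112, 107, 84.5 and 104 in histone-only, 74.3, 66.9, 59.3 and 64.0 in both, and 51.5, 52.6, 41.1 and 44.9 in neither cells. Its fitted step from both to histone-only was 0.63 ± 0.0717 and that from neither to both 0.47 ± 0.0503. The steps were not tested against each other. Mcm6 was the flattest of the ring. It lay at 286, 280.1, 240.3 and 256 in histone-only against 187, 170.2, 155 and 162 in neither cells (0.65 ± 0.0486), and at 199, 178, 148 and 153 in mitotic-only cells, where its difference from neither of -0.04 ± 0.0410 did not pass the test.

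Of the licensing genes, Cdc6, which brings the helicase to the origin, changed most. Its level was 39.8, 49.3, 65.8 and 60.5 CPM in histone-only cells against 11.7, 10.3, 13.2 and 14.5 in neither cells, a 4.37-fold difference (2.13 ± 0.114). It was lower in both (24.1, 27.2, 31.6 and 33.0) and in mitotic-only cells (26.2, 19.3, 28.4 and 24.5) than in any histone-only library. Cdt1, its partner in loading, moved less, from 21.9, 22.8, 16.5 and 17.8 in neither to 41.4, 34.4, 41.1 and 36.5 in histone-only cells (1.0 ± 0.123). Counts of Cdt1 are uncertain because another annotated gene, Gm20388, overlaps its 3′ end on the same strand. Dtl, the adaptor that marks CDT1 for destruction in S phase, was higher by 1.28.

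The helicase activators spread most widely. Mcm10, which helps the loaded helicase to fire, had the largest fold of all members, 39.8, 44.0, 31.5 and 35.5 CPM in histone-only against 6.59, 5.58, 5.86 and 5.64 in neither cells, or 6.19-fold (2.63 ± 0.132). Cdc45, a subunit of the active helicase, followed at 47.1, 66.1, 41.1 and 47.1 against 12.9, 12.6, 7.39 and 8.85 (2.30 ± 0.144). Both genes remained higher in mitotic-only than in neither cells, Mcm10 by 1.53 ± 0.0935 and Cdc45 by 1.33 ± 0.0992, the largest such folds among the members. The GINS subunits differed among themselves. Gins1 was highest in histone-only cells (28.4, 32.6, 27.0 and 30.7 against 14.9, 14.0, 12.4 and 13.2 in mitotic-only, 1.15 ± 0.134), whereas Gins3 gave 10.6, 13.2, 16 and 12 against 11, 12.1, 11.6 and 9.72, a difference of 0.28 ± 0.193 that did not pass the test (adjusted p = 0.388, edgeR).

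All 4 polymerase and primase genes rose, by 1.42 (Pold1) to 1.80 (Pole) in histone-only and by 1.31 to 1.89 in both against neither cells. Pola1, the catalytic subunit of the polymerase that starts each strand with the primase, was the steepest in the class both, at 74.5, 64.6, 74.1 and 73.0 CPM against 20.9, 18.7, 17.6 and 19.9 in neither cells (1.89 ± 0.0540). The clamp Pcna is abundant and changed by a smaller factor, from 198, 182, 144 and 141 in neither to 434, 407, 327 and 309 in histone-only cells (1.14 ± 0.0511). Its mitotic-only levels of 280.0, 249, 183 and 181 lay between them in each library. Among its loaders, Rfc4 had the widest change, from 40.9, 45.1, 38.6 and 42.0 to 137, 148, 132 and 149 (1.76 ± 0.0644), while Rfc2 went from 80.5, 81.3, 81.8 and 82.8 to 139.7, 161, 154 and 157 (0.90 ± 0.0527). Rpa2, a subunit of the complex that coats single-stranded DNA, had the smallest fold of all, 143, 129.5, 132 and 115 against 96.8, 93.1, 89.7 and 76.7 (0.54 ± 0.0595).

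Fen1 and Lig1, which trim and seal the fragments of the lagging strand, were higher by 1.48 each in histone-only cells. Ung, the glycosylase that removes uracil from DNA, went the other way in one class. It stood at 49.5, 53.7, 60.3 and 64.8 CPM in histone-only cells, but at 18.1, 15.3, 18.9 and 20.6 in the class both, below the 26.8, 26.5, 22.1 and 26.3 of neither cells in each library. It was the only member called lower in both than in neither cells (-0.47 ± 0.0792), and in mitotic-only cells (30.8, 21.6, 22.6 and 27.3) it did not differ from neither beyond its error (-0.02 ± 0.0858). Cdca7, which helps HELLS to remodel nucleosomes, resembled it in part, with 63.3, 79.3, 77.7 and 80.7 in histone-only but 35.9, 31.2, 35.3 and 40 in both and 40.1, 38.9, 35.0 and 36.1 in neither cells. Its difference between both and neither was -0.07 ± 0.0616 and did not pass the test.

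The other chromatin members followed the larger group. Uhrf1, which reads hemimethylated DNA behind the fork, rose from 29.9, 27.4, 21.0 and 24.6 in neither to 90.9, 115, 96.4 and 82.1 in histone-only cells (1.90 ± 0.101). Hells, the remodeller itself, went from 67.1, 60.6, 65.7 and 62.8 to 190.0, 175, 196 and 161 (1.48 ± 0.0692). The subunits of the assembly factor CAF-1, Chaf1a and Chaf1b, were higher by 1.59 and 1.32. Slbp, which binds the stem-loop of histone messages, changed from 128, 122, 117 and 117 to 282, 249, 223 and 200.2 (0.95 ± 0.0499), and its levels in the class both, 259, 236, 236 and 226, overlapped these.

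Histone-only cells were then set directly against the class both, a comparison added after the class levels had been seen. Of the 32 members 17 were higher and none lower (all genes 6.04% and 8.18%), with a median log2 fold change of 0.22. By the rank of their mean level, 26 members were highest in histone-only cells and 6, Cdc45, Gins3, Pola1, Pole, Fen1 and Slbp, in the class both. By role, all 6 MCM2-7 subunits passed (0.20 for Mcm7 to 0.63 for Mcm2), as did Cdc6 (0.91 ± 0.107) and Dtl (0.40) of the licensing genes, Gins1 (0.61) and Gins2 (0.24), Rfc3 (0.37), Rpa2 (0.21), Hells (0.55), Chaf1b (0.40) and Uhrf1 (0.29). The lead was held by Ung (1.66 ± 0.124, 3.16-fold) and Cdca7 (1.09 ± 0.0946, 2.12-fold), and for both genes the lowest histone-only library lay above the highest library of the class both.

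None of the 4 polymerase and primase genes passed, nor did Pcna (0.04 ± 0.0503), Rfc2, Rfc4, Fen1 (-0.09 ± 0.0835), Lig1, Slbp (-0.02 ± 0.0490), Cdc45 (-0.03 ± 0.122), Mcm10 (0.25 ± 0.112), Cdt1 or Chaf1a. Gins3 had the lowest value, -0.39 ± 0.172 (adjusted p = 0.145, edgeR), from 10.6, 13.2, 16 and 12 CPM against 15.6, 13.1, 19.1 and 19.2, and Pola1 was next at -0.21 ± 0.0820 (adjusted p = 0.0919). Among the 15 members whose promoter held E2F-type letters, 10 were called higher here with a median of 0.36, and among the 12 with a promoter but no such letters 4 were, with a median of 0.12. Against neither cells the same groups had medians of 1.43 and 1.4. The count of 17 became 6 when the sums were made from thinned cells, which hold far fewer UMIs, and 1.59% of all genes were then higher. Cdc6 (0.76) and Cdca7 (0.57) missed the threshold in these sums, and so did Mcm5 and Mcm7. Without the library block 10 members and 1.45% of all genes were higher, and Mcm5 and Mcm7 were not among the 10. With DESeq2 17 members and 7.11% of all genes were higher. Leaving out aPD-1 replicate 1, 2 or 3 or IgG gave 15, 14, 13 and 16 members higher, when 4.59%, 4.26%, 4.0% and 4.0% of all genes were. Without aPD-1 replicate 2, 1 member, Pola1, was called lower. Across these fits Rpa2 passed only without aPD-1 replicate 2 and Gins2 only without IgG. Uhrf1 was lost without aPD-1 replicate 2 or 3, Mcm7 without aPD-1 replicate 2 and Dtl without aPD-1 replicate 3.

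**Figure D3:**
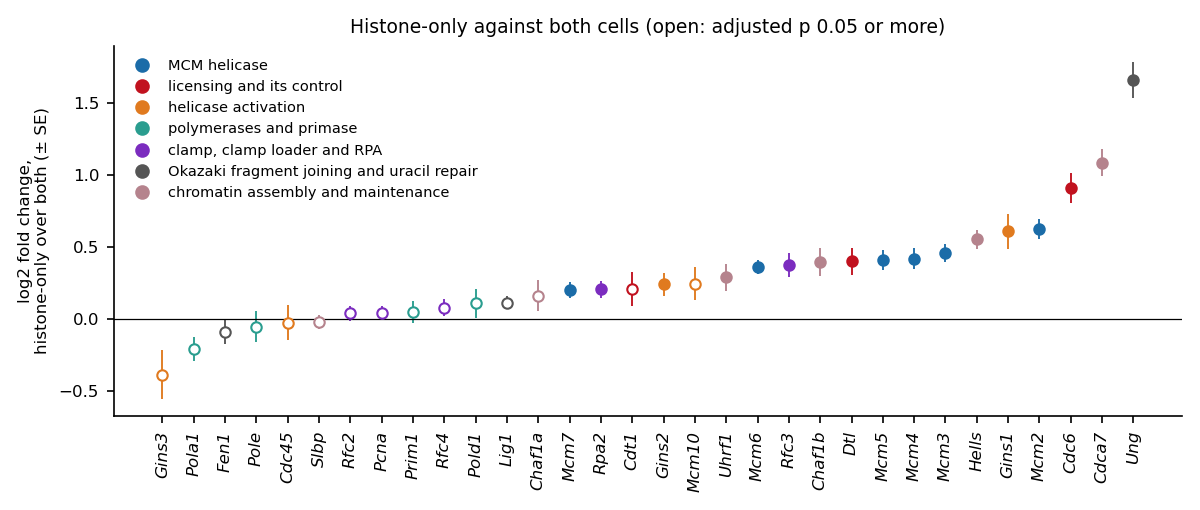
log2 fold change of each member between histone-only cells and cells of the class both, with standard errors, coloured by role, with open symbols where the adjusted p was 0.05 or more. Ung, Cdca7 and Cdc6 lie highest at 1.66, 1.09 and 0.91, all 6 MCM2-7 subunits are filled, and the 4 polymerase and primase genes are open, between -0.21 and 0.11.

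Neither cells that had at least 8 UMIs of other replication genes (10.3 to 15.6% of the class) were followed gene by gene. Cdc6 stood at 39.6, 34.8, 64.0 and 56.7 CPM in them and at 0.224, 0.207, 0.932 and 1.14 in neither cells with 0 to 1 such UMI, the widest ratio of the 32 (77.9-fold by means, on very few counts at the low end). Ung reached 64.6, 62.3, 77.2 and 84.0, above histone-only cells in all 4 libraries, and so did Mcm2 with 112, 120.2, 116 and 112. Mcm10, by contrast, gave 21.1, 15.5, 27.8 and 21.7, below histone-only cells in all 4. In all, 6 members were above histone-only cells in every library and 9 below, and 12 had their highest mean level here. These counts were made for the members only, so that no share of all genes stands beside them. The neither cells were picked for replication UMIs here and the histone-only cells were not. In the bin of 8 to 15 other-replication UMIs, histone-only cells gave 8.63 to 9.07 member UMIs by library and neither cells 6.84 to 7.82. Inside the bin the cells were not matched on these UMIs. These bins were cut on replication genes and carry no test.

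The members were next followed over differentiation states. Clusters were built without the members, without the other replication, mitotic and histone genes and without 1890 further genes that followed them, and each was named by markers among its 10 leading genes. This gave hypoxic-like (9122 cells, led by Bnip3 and Prf1), granzyme high-like (6411, Gzmc and Fcer1g), cytokine effector-like (3363, Xcl1 and Ifng), precursor exhausted-like (2795, Ccr7 and Tcf7), effector memory-like (1020, Klf2 and S1pr1) and interferon response-like cells (348, Isg15 and Ifit1). The names are approximate. Summed levels of the granzyme markers were 3454 CPM in granzyme high-like and 3089 in hypoxic-like cells, and the precursor markers summed higher in cytokine effector-like (8520) than in precursor exhausted-like cells (2967) because they include Xcl1. Tk1, a gene of DNA synthesis, was still the 10th leading gene of granzyme high-like cells. Cells in the histone-only, both or mitotic-only classes made up 35.3 to 48.6% of granzyme high-like, 28.7 to 47.0% of effector memory-like, 26.3 to 35.7% of hypoxic-like, 20.4 to 25.6% of precursor exhausted-like, 18.1 to 25.6% of cytokine effector-like and 16.3 to 26.5% of interferon response-like cells.

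The members and the genes used for clustering were counted in the same cells, so that the tests below compare libraries and not independent measurements of a state. Each state was fitted against the mean of the others over 11377 genes. In granzyme high-like cells all 32 members were higher (20.5% of all genes higher, 19.7% lower), with a median log2 fold change of 0.56. Cdc6 led with 29.4, 27.2, 30.8 and 32.4 CPM (0.94 ± 0.114), above its 15.9, 14.2, 14.7 and 15.2 in hypoxic-like cells, and Cdc45 (40.5, 41.9, 26.0 and 27.4, 0.75 ± 0.0849) and Lig1 (193, 198, 185 and 189, 0.71 ± 0.0698) came next. The smallest differences were those of Mcm6 (232, 210.0, 176 and 187, 0.22 ± 0.0562), Rpa2 (117, 117, 105 and 96.2, 0.22 ± 0.0437) and Cdt1 (34.5, 30.3, 27.9 and 28.2, 0.33 ± 0.0796). Among all 6 states, 27 members had their highest mean level here.

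Within neither cells alone, over 10606 genes, all 32 members were again higher in granzyme high-like cells (18.1% of all genes higher, 16.5% lower), with a median of 0.81, and Mcm10 (13.5, 10.1, 8.95 and 9.0, 1.4 ± 0.203) and Cdc6 (24.2, 18.3, 24.6 and 26.1, 1.37 ± 0.115) had the largest folds. The result depended on how the state was drawn. When only the fixed lists were left out of the clustering, 7234 cells led by histone and mitotic genes formed a cluster of their own. The cluster then named granzyme high-like held 9263 cells and had Aldoc and Sdcbp2, leading genes of the hypoxic-like cluster above, among its 10 leading genes, and no cluster was named hypoxic-like. In it 1 member was higher and 22 lower (22.2% of all genes higher, 19.7% lower), with a median of -0.30. At a clustering resolution of 0.5 instead of 0.3 a cluster of 4460 cells led by Tk1, Rrm2 and Pclaf split off, and in the 2352 cells then named granzyme high-like 15 members were higher and 1 lower (13.7% of all genes higher, 14.1% lower), with a median of 0.21. Tumour epithelium and fibroblast markers summed to 106 and 39.5 CPM in granzyme high-like cells of aPD-1 replicate 2, against at most 17.6 and 0.282 in the other libraries, and all 32 members were also higher without that library (19.2% of all genes).

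**Figure D4:**
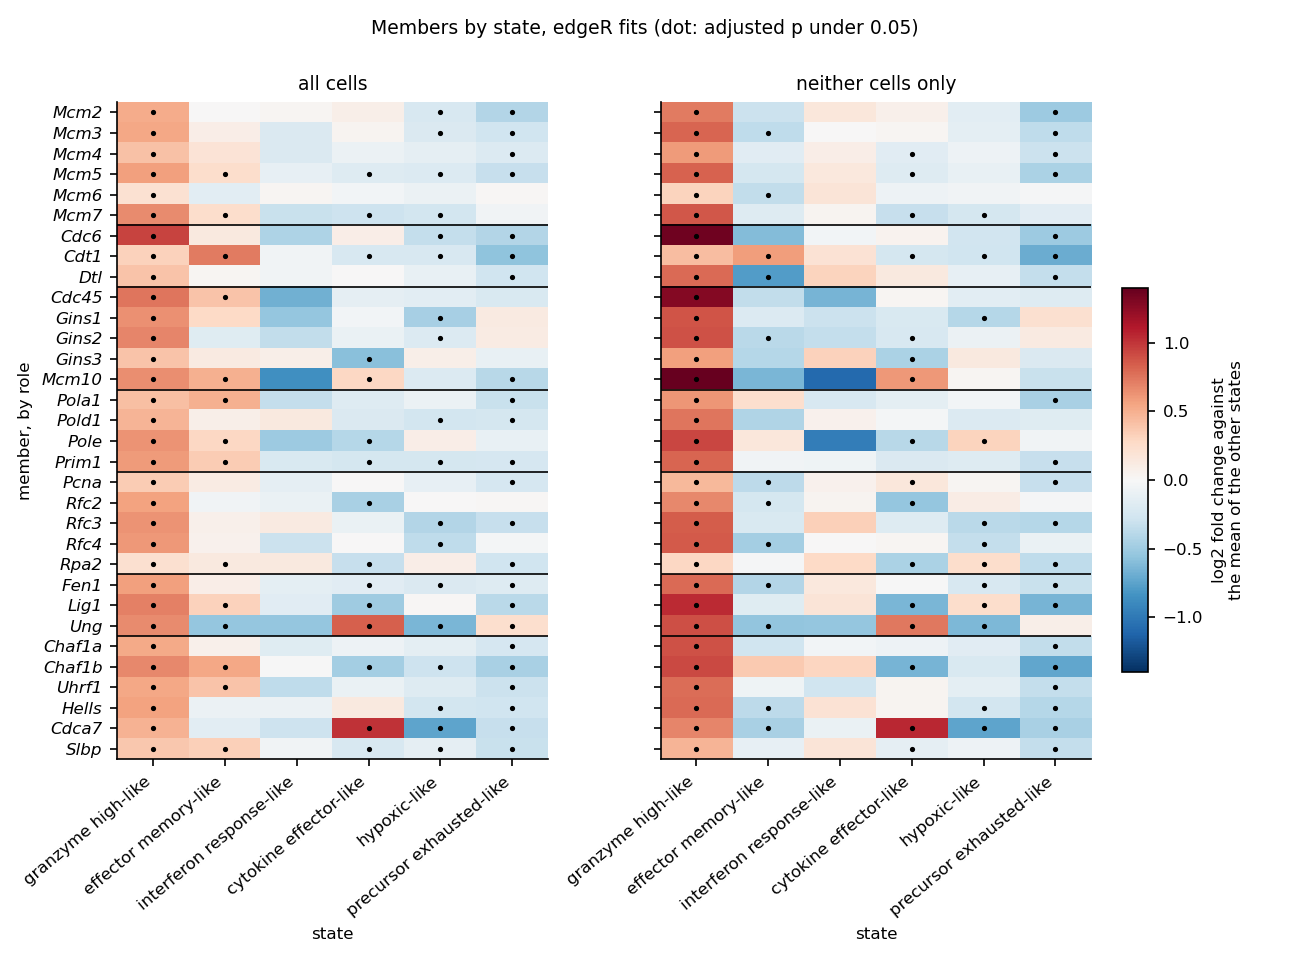
log2 fold change of each member (rows, by role) in each state (columns) against the mean of the other states, in all cells (left) and in neither cells only (right), from blue (lower) to red (higher), with a dot where the adjusted p was under 0.05. The granzyme high-like column is red for all 32 members in both panels, and Ung and Cdca7 are the reddest cells of the cytokine effector-like column.

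Precursor exhausted-like cells had 22 members lower and 1 higher (all genes 17.9% lower, 19.0% higher), with a median of -0.26. Cdt1 was lowest, at 16.6, 25.5, 14.3 and 17.7 CPM (-0.56 ± 0.101), followed by Chaf1b (28.7, 25.1, 19.8 and 21.0, -0.45 ± 0.0994) and Cdc6 (9.31, 17.1, 14.2 and 14.8, -0.41 ± 0.154). Mcm2 had nearly the same value, with 44.2, 49.3, 37.8 and 39.3 (-0.41 ± 0.0759). Ung was the 1 member called higher, at 25.6, 28.6, 23.3 and 25.2 (0.23 ± 0.0897), and it did not pass in neither cells alone (0.08 ± 0.102). Gins1 (13.1, 14.5, 12.7 and 10.2) and Gins2 (39.4, 45.4, 33.9 and 36.4) had values of 0.12 each that did not pass. In neither cells alone 20 members were lower and none higher (15.3% of all genes lower, 17.5% higher). When only the fixed lists were left out of the clustering, 28 members were lower and none higher in the cells named precursor exhausted-like (18.1% of all genes lower, 21.2% higher), with a median of -0.66 and Ung at -0.024. B or plasma cell markers summed to 1857 CPM in these cells of aPD-1 replicate 3 and to at most 122 in the other libraries, and without that library 17 members were lower (13.6% of all genes). Without aPD-1 replicate 1 the count was 14 (15.4%) and without IgG 12 (13.4%), with no member higher in any of these fits. The calls of Ung and Cdc6 did not hold in every fit with 1 library left out. That of Ung was lost without any 1 of the 4, and that of Cdc6 without aPD-1 replicate 1, aPD-1 replicate 3 or IgG.

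In cytokine effector-like cells 3 members were higher and 12 lower (32.3% and 33.8% of all genes). The largest differences were those of Cdca7, at 55.8, 53.4, 67.9 and 73.5 CPM against 28, 27.3, 21.2 and 23.4 in hypoxic-like cells (1.01 ± 0.0687), and Ung, at 33.2, 28.5, 35.8 and 39.9 against 18.1, 15.9, 12.7 and 17.1 (0.83 ± 0.0781). Mcm10 was the third (12.3, 11.5, 17.5 and 18.3, 0.29 ± 0.125), and its call was lost without aPD-1 replicate 3 (0.13) or IgG (0.24). Gins3 (5.31, 4.0, 7.78 and 7.37, -0.58 ± 0.112), Lig1 (75.1, 73.4, 112 and 105, -0.50 ± 0.0790) and Chaf1b (19.7, 16.8, 24.9 and 24.7, -0.47 ± 0.0928) were lowest. Of the 59 mitotic genes none was higher and 59 were lower in this state. When only the fixed lists were left out of the clustering, 2 members were higher and 29 lower in the cells named cytokine effector-like (31.2% of all genes higher, 32.8% lower), with a median of -0.55 and Mcm10 at -0.34. Within neither cells 4 members were higher and 12 lower (32.2% of all genes higher, 32.8% lower). The 4 were Cdca7 (1.06 ± 0.0800), Ung (0.74 ± 0.0867), Mcm10 (0.61 ± 0.235) and Pcna (0.16 ± 0.0577).

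In hypoxic-like cells 18 members were lower and none higher (18.8% and 23.7% of all genes), with a median of -0.19, and Cdca7 (-0.73 ± 0.0742) and Ung (-0.64 ± 0.0832) were the lowest, followed by Gins1 (10.6, 9.73, 7.74 and 8.70, -0.46 ± 0.108). Of the 59 mitotic genes 22 were higher and none lower. Rpa2 (121, 111, 102 and 87.6, 0.10 ± 0.0430), Pole (20.8, 19.1, 15 and 15.8, 0.09 ± 0.0777) and Gins3 (9.63, 9.41, 9.69 and 10.7, 0.08 ± 0.0869) had the highest values and did not pass. In neither cells alone 9 members were lower and 3 higher (18.7% of all genes higher, 17.8% lower), the 3 being Pole (0.31 ± 0.109), Rpa2 (0.25 ± 0.0487) and Lig1 (0.25 ± 0.0689). At a clustering resolution of 0.5, 27 members were lower and 1 higher (19.5% of all genes lower, 22.2% higher), with a median of -0.32, and the 1 was Rpa2 (0.15 ± 0.0501). The count in all cells fell to 8 lower (15% of all genes lower) without the IgG library, which holds 4531 of these cells.

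Effector memory-like cells had 13 members higher and 1 lower (22.5% and 22.8% of all genes), with a median of 0.13. Cdt1 led, at 43.2, 44.5, 36.4 and 34.1 CPM (0.73 ± 0.109), the highest of any state, followed by Chaf1b (45.1, 46.0, 34.8 and 48.3, 0.54 ± 0.111) and Mcm10 (22.4, 18.8, 16.9 and 14.2, 0.50 ± 0.170), whose call was lost without aPD-1 replicate 1 (0.37) or 2 (0.48). Ung was lower (17.4, 17.3, 16.6 and 15.4, -0.54 ± 0.128). Gins2 (38.5, 36.1, 27.4 and 32.2, -0.17 ± 0.109) and Cdca7 (35.1, 31.2, 34.1 and 41.8, -0.15 ± 0.104) did not pass. In neither cells of this state the picture turned, with 1 member higher and 11 lower (20.7% of all genes higher, 19.7% lower) and a median of -0.29, and Cdt1 was the 1 that stayed higher (0.59 ± 0.150). When only the fixed lists were left out of the clustering, 23 members were higher and 1, Ung, lower (-0.48 ± 0.163) in the cells named effector memory-like (23.0% of all genes higher, 21.7% lower), with a median of 0.36. These cells had a median UMI count of 0.756 of their library's median, and without aPD-1 replicate 1 the count in all cells was 6 higher and 1 lower (18.1% and 19.3% of all genes).

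No member passed in interferon response-like cells (7.04% of all genes higher and 5.35% lower), the smallest state with 34 to 145 cells a library. An unadjusted p under 0.05 in the edgeR fit was seen for 6 of the 32 members and for 2700 of the 11377 genes tested. Mcm10 (3.35, 8.97, 6.44 and 13.2 CPM, -0.86 ± 0.338), Cdc45 (13.4, 17.9, 12.2 and 15.4, -0.67 ± 0.240) and Ung (10.0, 15, 17.2 and 19.8, -0.54 ± 0.203) had the lowest values. Without the filter on low counts Mcm3, Mcm7, Mcm10, Ung, Cdc45, Uhrf1 and Rfc4 were lower in this state and none higher, when 4.49% of all 20089 genes were lower. The median over the members was then -0.21 and that over all genes -0.22.

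Treatment was tested on sums over all cells of a library, 3 aPD-1 against 1 IgG library, over 13810 genes. In such sums a larger share of cycling cells and more RNA per cell cannot be told apart, and the spread of the IgG arm is taken from the aPD-1 libraries. No member was called, nor was any of all genes tested (0%), and at an unadjusted p under 0.05 edgeR gave 0 of the 32 members and 282 of all genes. DESeq2 called 0 members as well. The median log2 fold change was 0.04, with 21 of 32 above 0. The largest values were those of Mcm7 (125, 113, 79.1 and 84.9 CPM, 0.33 ± 0.275), Pcna (269.8, 247, 196 and 199, 0.27 ± 0.208) and Rpa2 (107, 103, 98 and 86.8, 0.26 ± 0.129). In Mcm7 and Pcna the IgG level lay inside the aPD-1 range, and in Rpa2 below it. The lowest values were those of Cdc6 (17.8, 17.0, 20.5 and 21.9, -0.24 ± 0.154), Gins3 (8.87, 8.32, 10.1 and 10.5, -0.20 ± 0.158) and Ung (25.8, 23.4, 22.3 and 25.9, -0.10 ± 0.144), with IgG above all 3 aPD-1 libraries in each.

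The IgG level lay inside the range of the 3 aPD-1 libraries for 20 members, above it for 8 and below it for 4. In replicates 1 and 2, which share the first part of their sample title, Mcm7 stood at 125 and 113, and in replicate 3 at 79.1, next to the 84.9 of IgG. Left out, replicate 3 changed the result to 7 members called, Mcm5, Mcm7, Pcna, Cdc45, Dtl and Rpa2 higher and Cdc6 lower, when 24.9% of all genes were called. With a term that set replicates 1 and 2 apart, no member was called and the median turned to -0.099. That term joins replicate 3 with IgG, whose titles differ, and nothing in the labels ties these 2 libraries to each other. The paper describes 2 independent experiments and a correction between 2 batches, but does not say which libraries made up each. In neither cells alone and in histone-only cells alone no member was called. The share of histone-only cells was 1.98 ± 0.0703% (SD, n = 3) with aPD-1 and 1.99% with IgG, a difference of -0.0186 percentage points (two-sided exact permutation p = 1, with 0.25 the smallest p that 3 against 1 libraries allow).

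**Figure D5:**
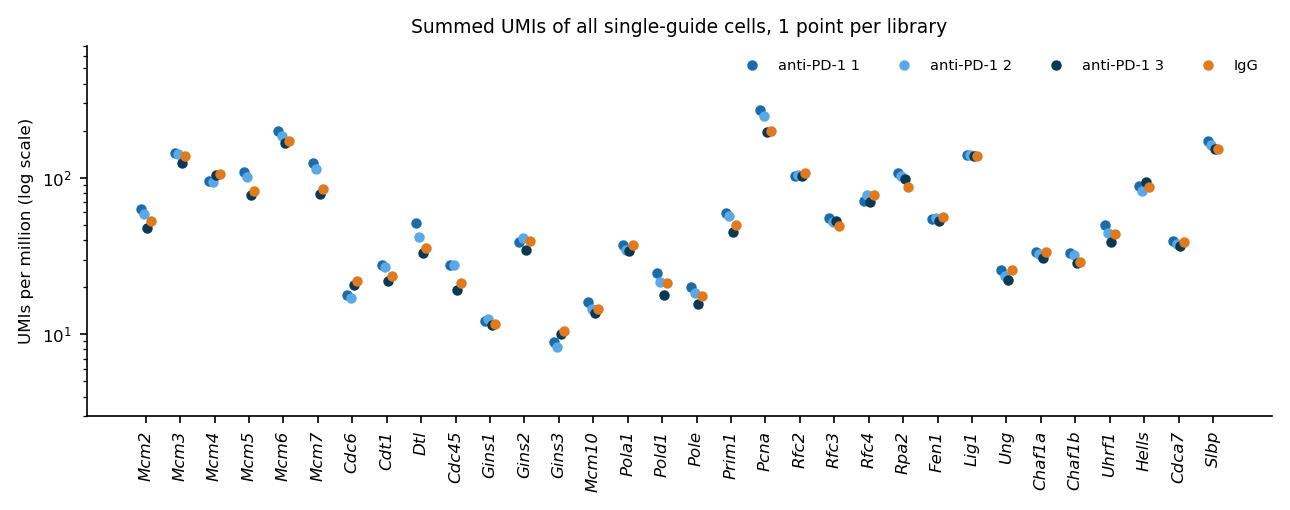
CPM of each member (log axis) in sums over all single-guide cells, 1 point per library, with the aPD-1 libraries in blue and IgG in orange. The IgG point lies within or beside the aPD-1 points for every member, and for Mcm7 and Pcna aPD-1 replicates 1 and 2 lie above replicate 3 and IgG.

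Finally, each CRISPR target was set against sgNT (2685 cells) on sums per target and library of at least 20 cells, for 57 targets and 8618 genes. Of 1824 tests of members 1 passed, a share close to the 0.0454% of tests that passed over all genes and targets. The call was Hells in cells with the guide against Pik3cd, the catalytic p110 delta subunit of phosphoinositide 3-kinase, of which a single guide was seen in 25, 28, 210 and 236 cells. Pik3cd messages lay above sgNT in 2 libraries and below it in 2, at 62.3, 31.8, 67.0 and 58.5 CPM against 51.2, 44.3, 58.3 and 60.2 in sgNT, which does not test the protein since Cas9 cuts need not remove the message. Hells stood at 37.4, 54.2, 70.3 and 59.8 against 84.8, 87, 92.1 and 93.5 in sgNT, below it in each library (-0.59 ± 0.156, adjusted p = 0.0197, edgeR, where 0.406% of all genes were called lower for this target). Of the 32 members 31 were below 0, with a median of -0.31. Beside this, cells in a cycling class made up 12, 32.1, 21.0 and 25.6% against 33.6, 38.2, 29.2 and 32.8% in sgNT, and granzyme high-like cells 20, 21.4, 13.3 and 15.7% against 21.2, 26.3, 31.5 and 31.5%. Their part in the result was not tested. The call was lost with at least 50 cells a sum, and without aPD-1 replicate 1 (-0.55), aPD-1 replicate 3 (-0.71) or IgG (-0.59). Target medians over the 32 members ranged from -0.36 (Aspa) to 0.18 (Mdh2), and no member was called in either.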

How the data were processed

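The authors deposited raw gene counts (unique molecular identifiers per gene and cell barcode, 10x Chromium 3′ v3.1 chemistry) and a table of guide calls per cell for each of 4 channels. The submitters' processing notes name Cell Ranger 3.1.0, Seurat, R 3.6.3 and the build mm10, while no gene annotation release is named there. The guide calls per cell were deposited by the authors and were used as they stand. Counts tag the 3′ end of messages and are not per length, so levels were compared between samples and not between genes.

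Cells with 1 guide, a log10 UMI count within 3 median absolute deviations of the library's median and at most 10% mitochondrial UMIs were kept, which left 23059 of 23805 single-guide cells. No doublet caller was run. The single-guide rule and the upper UMI limit stood in for one. For classes each cell was thinned to 2000 UMIs, and thresholds were set by Otsu's method on the histone and mitotic sums. For states, 215 expressed genes of the cycle lists and 1890 genes with a mean absolute correlation above 0.1 with the cycle scores were left out. The 2000 most variable remaining genes, 15 components, 20 neighbours and Leiden clustering (leidenalg 0.10.2) at a resolution of 0.3 gave the clusters, named where at least 2 markers were among the 10 leading genes.

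Counts were summed per library and class, state or target. They were tested with the quasi-likelihood test of edgeR 4.0.16 (limma 3.58.1, R 4.3.3) with Benjamini-Hochberg adjustment over all genes passing edgeR's filter on low counts, separately for each comparison, and a call is an adjusted p under 0.05. Class, state and target fits had the library as a block because their sums come from the same channel. The standard error is the log2 fold change divided by the root of F. Treatment was tested on 3 against 1 library sums with no block, since replicate 1 is the only number both arms carry and nothing ties those libraries to each other. All adjusted p-values in the report are edgeR's. They measure the spread between libraries, which may be technical, as the animals in each library are not given. The fits were tested on simulated counts before use.

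Values in every library are given for Mcm2, Mcm5, Pcna, Cdc6, Slbp and Uhrf1 where a comparison turns on them. They are also given for members among the 3 largest and 3 smallest log2 fold changes, though not for all of these in every comparison. Other members given in this way were picked with their values in view. The members, lists and comparisons were chosen with earlier results of these data known. Alternatives were DESeq2 1.42.0, RLE size factors, no filter, each library left out, thinned sums, no library block, a term for aPD-1 replicates 1 and 2, other thresholds and other clusterings. Intervals cover counting error only.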

Additional observations from a re-analysis of the deposited data

How the results depend on the processing

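Of the values that answer a comparison, 113 recomputed values stayed within the limits set for them and 21 moved, and of those of single genes and medians 493 stayed, 19 moved, 27 missed the threshold and 15 changed sign. The cause was not tested in any of these. Counts given here without the share of all genes in the same fit cannot show whether members or all genes moved. With treatment, 0 to 7 members were called when 1 library was left out, the 7 without aPD-1 replicate 3, and the term setting aPD-1 replicates 1 and 2 apart gave a median of -0.099. Taking the top 20% of cells for the classes gave 18 calls in mitotic-only against neither cells. Histone-only against both cells gave 6 calls with thinned counts, 13 to 16 with 1 library left out, and 10 with no replicate block, while dropping the block changed no other class comparison by over 1.5 times. The labels pair no aPD-1 with an IgG library, so no paired fit of treatment was possible. With 1 library left out, counts of members ranged from 7 to 15 in effector memory-like, 8 to 21 in hypoxic-like, 12 to 22 in precursor exhausted-like and 0 to 1 in interferon response-like cells, and from 0 to 1 over targets, where a minimum of 50 cells gave 0. Leaving only the fixed lists out of the clustering gave 31 calls (2 higher, 29 lower) in cytokine effector-like, 24 (23 higher, 1 lower) in effector memory-like and 1 in interferon response-like cells. It turned the granzyme high-like median to -0.30 and the values there of Cdt1 (-0.30), Lig1 (-0.054), Mcm6 (-0.095), Cdc45 (-0.52) and Cdc6 (-0.30), the interferon response-like median to 0.11, Mcm10 in cytokine effector-like (-0.34) and Ung in precursor exhausted-like cells (-0.024). A resolution of 0.5 gave 16 calls in granzyme high-like cells, with Mcm6 at -0.12 and Rpa2 at -0.15, and 28 (1 higher, 27 lower) in hypoxic-like cells, and a resolution of 0.2 gave 2 in interferon response-like cells and named no granzyme high-like, hypoxic-like or precursor exhausted-like cluster. Without the filter on low counts 7 members were called lower in interferon response-like cells. In neither cells alone the medians of effector memory-like (-0.29) and interferon response-like cells (0.048) and Mcm10 in effector memory-like cells (-0.64) changed sign. With counts as deposited histone-only cells made up 1.58%, 1.58% and 6.30% with aPD-1, a mean of 3.15 ± 2.72% (SD), and 3.82% with IgG. The difference was -0.668 percentage points. The share of both cells differed by 14.8, of mitotic-only cells by 10.4 and of neither cells by -24.5 (18.1% against 42.6%).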
